A study of Rattus norvegicus with 120 samples.

Results

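Usher syndrome genes were followed in the eyes of 120 rats: the cadherins Pcdh15 and Cdh23, the myosin motor gene Myo7a and Ush1c, which encodes the scaffold protein harmonin. The members were all probe sets that the array annotation gives to one of these symbols alone, and each symbol had 1 probe set, so 4 of 31042 probe sets that are no control were described. All 4 were among the 23326 probe sets that passed a filter on low values (mean log2 level of at least 4.283). Pcdh15 was put at the head of the set because its level differed so much between the L codes in the sample titles, so its differences between those codes are given below as a description, and nothing is read from their test.

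The animals were F2 males of an SR/JrHsd x SHRSP intercross, each 12 weeks old, and the labels place all 120 in 1 group. SHRSP rats are hypertensive and prone to stroke, and every F2 animal carries its own mixture of both parental genomes. The 2 eyes of a rat gave 1 RNA sample and 1 Affymetrix array, with no repeat, so biological differences and measurement error add up in every spread given here. Each title carries an L code (22 codes of 2 to 11 arrays) and an S code (10 codes of 11 to 13 arrays), and the labels explain neither. Values below are log2 levels from which S code means were subtracted, with the overall mean of the probe set kept, unless they are called deposited. Genotypes were not used here.

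Usher syndrome combines inherited deafness with degeneration of the retina. In the hair cells of the inner ear, protocadherin 15 and cadherin 23 join into the tip link that pulls the mechanotransduction channel open, while harmonin and myosin VIIa hold the upper end of that link to the actin core of the hair bundle. In the eye the same proteins are found in photoreceptors, and myosin VIIa also moves melanosomes and phagosomes in the pigment epithelium. A whole eye holds photoreceptors, pigment epithelium, lens, cornea and glands at once, so fewer cells of a type and less RNA per cell cannot be told apart in these values. In 14 lists of ocular cell type markers, 94 members had a probe set past the filter, among them 11 of 14 rod markers, 7 of 9 cone markers and 7 of 8 pigment epithelium markers.

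The RefSeq windows around the annotated transcript starts (250 bases before to 50 after, build GRCr8) are shown for Pcdh15 and Ush1c, the only pair of members whose Pearson r passed the threshold below. Both lie on the minus strand and are printed 5′ to 3′, with capitals marking the searched motifs, at chr20:14824749-14825048 for Pcdh15 and at chr1:105880033-105880332 for Ush1c.
Pcdh15: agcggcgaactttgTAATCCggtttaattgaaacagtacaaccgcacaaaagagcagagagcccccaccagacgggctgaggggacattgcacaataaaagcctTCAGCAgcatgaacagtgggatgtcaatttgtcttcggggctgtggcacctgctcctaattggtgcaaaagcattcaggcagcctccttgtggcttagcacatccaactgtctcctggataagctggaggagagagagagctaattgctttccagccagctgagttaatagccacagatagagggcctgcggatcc
Ush1c: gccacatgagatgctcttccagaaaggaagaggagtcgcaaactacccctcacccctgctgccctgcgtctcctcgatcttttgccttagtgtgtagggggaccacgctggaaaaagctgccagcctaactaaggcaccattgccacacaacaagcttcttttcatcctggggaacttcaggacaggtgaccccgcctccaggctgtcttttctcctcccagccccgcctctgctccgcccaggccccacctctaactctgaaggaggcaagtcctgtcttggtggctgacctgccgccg
The Pcdh15 window lies inside the full span of the gene and marks 1 of its transcript starts. Motifs were searched on both strands: TAATCC, the core bound by the photoreceptor factor Crx, TGCTGA, a core element bound by the rod factor Nrl, the E-box CACGTG, bound by clock factors among others, and the TATA motif TATAAA. The Pcdh15 window held TAATCC 236 bases before the start on the strand of the gene, and TGCTGA as its reverse complement 146 bases before the start. The windows of Ush1c, Cdh23 and Myo7a held none of the 4 motifs. Over 33469 RefSeq windows of the same length, 7.17% held TAATCC, 18.4% TGCTGA, 6.42% CACGTG and 14.2% TATAAA on either strand. The Cdh23 window, also on chromosome 20, had a GC content of 74.7%, against 51.3% for Pcdh15, 54.3% for Myo7a and 58.7% for Ush1c. These matches describe letters in a window and not sites of binding.

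Pcdh15, the lower part of the tip link, was read by probe set 1378408_at. Its deposited log2 level was 7.14 ± 0.44 (SD, n = 120), with a lowest value of 6.38 in animal R104, a median of 7.01 and a highest of 8.19 in animal R93. The lowest and highest animals therefore differed 3.51-fold. With S code means removed the SD was 0.40, larger than that of 96.9% of the probe sets past the filter, whose median SD was 0.162. Cdh23, the upper part of the same link, was read by 1368970_at at 5.0, with an SD of 0.139 (n = 120), a lowest value of 4.64, a median of 5.0 and a highest of 5.35. Myo7a, the motor at the upper end of the link, was read by 1380245_at at 6.27, with an SD of 0.163 (n = 120), a lowest value of 5.21, a median of 6.27 and a highest of 6.58. Ush1c, the scaffold, was read by 1390541_at at 5.58, with an SD of 0.163 (n = 120), a lowest value of 5.17, a median of 5.57 and a highest of 6.21. Cdh23 varied less than most probe sets, and Myo7a and Ush1c lay close to the middle (30.8%, 50.6% and 50.5% of probe sets had a smaller SD). The array of animal R63 held both the lowest Myo7a and the highest Ush1c value. That array had been scanned again according to its title, and its median correlation with the other arrays (0.911) was the lowest of all, against a median of 0.982.

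The deposited Pcdh15 values fell on either side of a nearly empty interval. Between 7.3 and 7.4 there was 1 array, with 81 arrays below it and 38 at 7.4 or above. The high side was filled almost wholly by the later L codes. In L codes 1 to 10 the highest deposited value was 7.45, and 2 of 49 arrays reached 7.4, those of animals R9 and R22, both in S code 5. In L codes 11 to 22, 36 of 71 arrays did. All arrays lay under 7.3 in 13 L codes, all lay at 7.4 or above in L14 and L15, and L codes 2, 5, 11, 18, 20 and 21 had arrays on both sides.

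**Figure D1:**
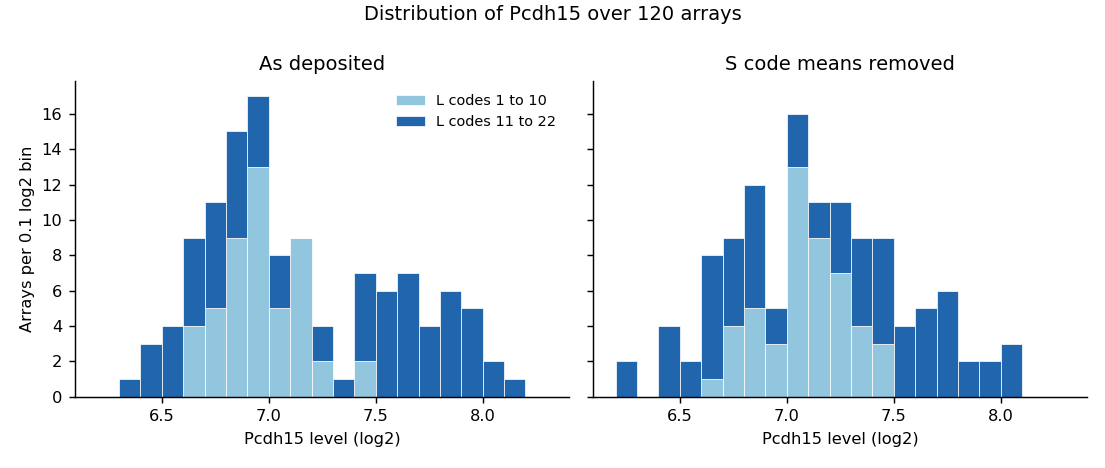
Number of arrays per 0.1 log2 bin of the Pcdh15 level, as deposited (left) and with S code means removed (right), with arrays of L codes 1 to 10 in light blue and of L codes 11 to 22 in dark blue, stacked. As deposited, 1 array lies between 7.3 and 7.4, while with S code means removed no bin between 7.0 and 7.5 holds fewer than 9 arrays.

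Of the 6 L codes with arrays on both sides of the interval, L11, L21 and L20 are described here. In L11, animals R54, R55 and R56 had deposited Pcdh15 levels of 7.09, 6.83 and 6.74, and animals R57 and R58 had 7.80 and 7.92. The lower animals of L11 were in S1, S2 and S3 and the higher ones in S4 and S5. This split therefore cannot be told apart from the S code. In L21, animals R112, R113, R114, R115 and R118 had 7.78, 7.57, 7.57, 7.45 and 7.49, and animals R116, R117 and R119 had 6.78, 6.52 and 6.43. Arrays of L21 in S7 lay on both sides, those of R112 and R118 high and that of R119 low. In L20, animal R106 had 6.79, and the other 6 animals had 7.45 to 8.02. R106 was the only animal of L20 in S7. In L18 the lowest deposited values, 7.24 in R97 and 7.27 in R91, lay close to the interval. Removal of S code means filled the interval: each bin of 0.1 between 7.0 and 7.5 then held at least 9 arrays. The S and L codes ran partly together, which bears on this step. S codes 1, 2 and 3 held 35 arrays of L codes 1 to 13, none of L14 or later, and no array at 7.4 or above, while S codes 9 and 10 held only L codes from 16 on and had 7 of 12 and 9 of 13 arrays at 7.4 or above.

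**Figure D2:**
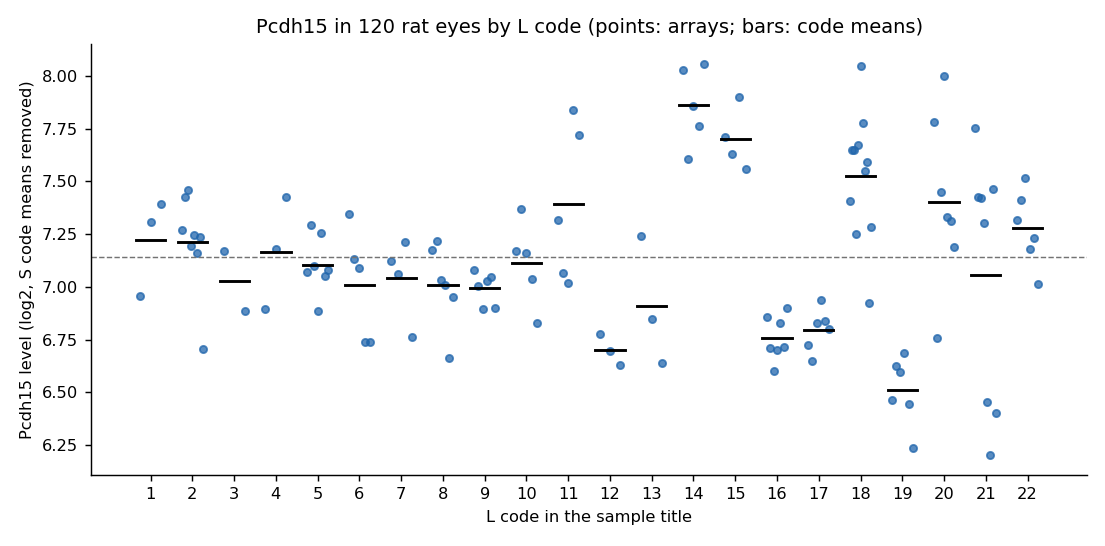
Pcdh15 level of each of the 120 arrays (points, log2, S code means removed) by L code, with bars at the code means and a dashed line at the mean of all arrays. The means stay between 6.99 and 7.22 in L codes 1 to 10 and spread from 6.51 in L19 to 7.86 in L14 in the later codes.

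With S code means removed, Pcdh15 was highest in L14 at 7.86 ± 0.19 (SD, n = 5), where the arrays of animals R66 to R70 had 8.03, 7.61, 7.86, 7.76 and 8.06. L15 followed at 7.70 ± 0.15 (n = 4), with arrays at 7.71, 7.63, 7.90 and 7.56, and L18 at 7.53 ± 0.30 (n = 11), from 6.92 to 8.05. L14 and L15 overlapped in their ranges and did not differ beyond their spread. It was lowest in L19 at 6.51 ± 0.16 (n = 6), where the arrays of animals R99 to R104 had 6.47, 6.62, 6.60, 6.69, 6.45 and 6.23. L12 followed at 6.70 ± 0.07 (n = 3), and L16 at 6.76 ± 0.11 (n = 7), and the ranges of these 3 codes overlapped. The lowest array of L14 lay 0.92 above the highest of L19. The difference between the means of L14 and L19 was 1.36 on the log2 scale, or 2.56-fold. The 3 S codes that held both gave deposited differences of 1.39 (S6), 1.14 (S7) and 1.42 (S8), each between 1 array of L14 and 1 or 2 arrays of L19.

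The other 16 codes lay between these. Above the overall mean were L20 at 7.4 ± 0.40 (n = 7), L11 at 7.39 ± 0.37 (n = 5), L22 at 7.28 ± 0.18 (n = 6), L1 at 7.22 ± 0.23 (n = 3), L2 at 7.21 ± 0.23 (n = 8) and L4 at 7.17 ± 0.26 (n = 3). Below it were L10 at 7.11 ± 0.20 (n = 5), L5 at 7.10 ± 0.14 (n = 7), L21 at 7.05 ± 0.60 (n = 8), L7 at 7.04 ± 0.20 (n = 4), L3 at 7.03 ± 0.20 (n = 2), L6 at 7.01 ± 0.27 (n = 5), L8 at 7.01 ± 0.20 (n = 6), L9 at 6.99 ± 0.08 (n = 6), L13 at 6.91 ± 0.31 (n = 3) and L17 at 6.80 ± 0.10 (n = 6). The ranges of neighbours in this order overlapped. The SD within an L code, pooled over codes, was 0.27, and L21, with deposited levels on both sides of the interval, had the widest spread. L22 lay wholly in S10, so its level depended on how the S code was treated: 7.28 with S code means removed, 7.6 as deposited and 7.77 in a joint model of both codes. In that model L22 lay above L15 (7.71) and L18 (7.7). The side of the overall mean (7.14) also depended on this for L1, L4 and L21. L1 and L4 lay below it as deposited (6.97 and 6.92) and in the joint model (7.05 and 7.0). L21 lay above it as deposited (7.2) and in the joint model (7.18).

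The spread of Pcdh15 between animals was itself larger in the later codes. Its SD was 0.198 over the 49 arrays of L codes 1 to 10 and 0.493 over the 71 arrays of L codes 11 to 22, a ratio of 2.49, larger than that of 99.97% of the probe sets past the filter (median ratio 1.02). The ratio was 0.922 for Cdh23, 1.41 for Myo7a and 1.26 for Ush1c. This split of the codes was chosen after the values had been seen, and it is given as a description.

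**Figure D3:**
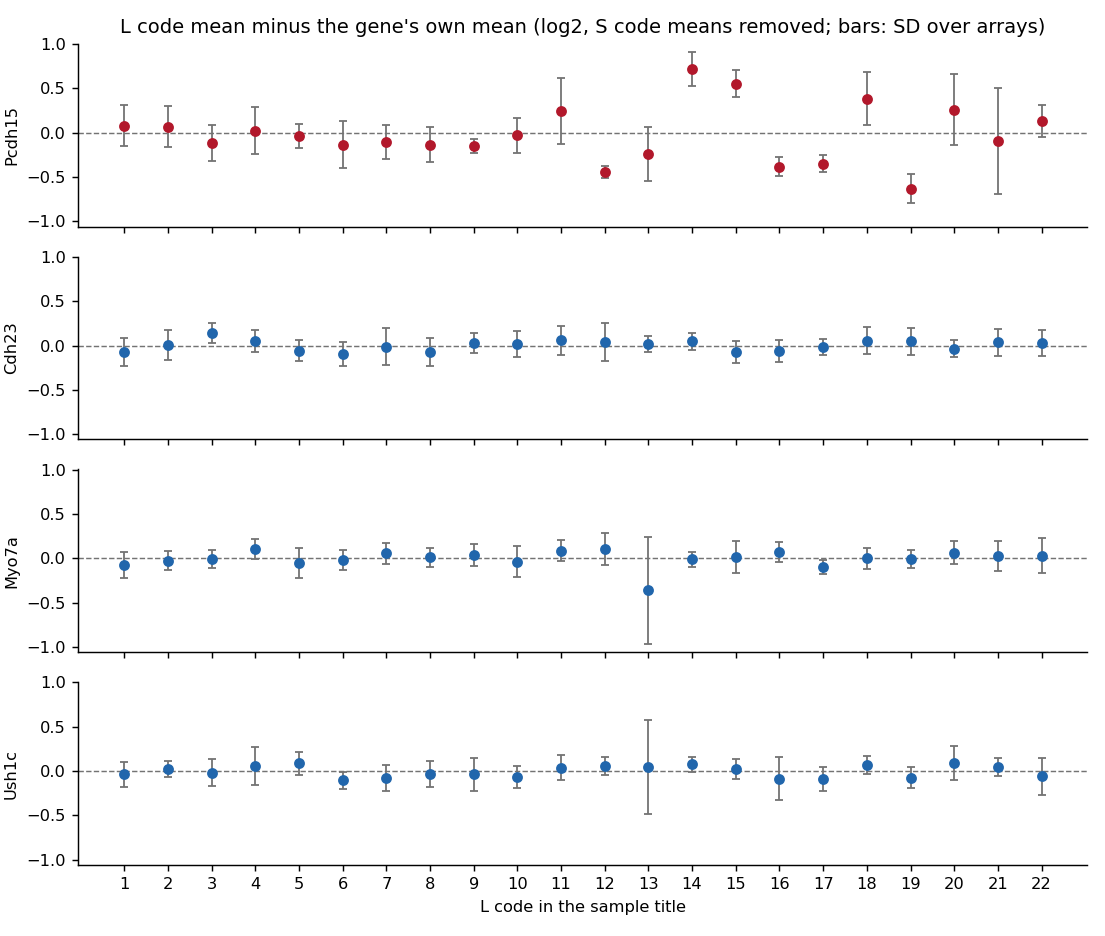
Mean of each L code minus the gene's own mean over all arrays (points, log2, S code means removed; bars are SDs over the 2 to 11 arrays of a code) for Pcdh15, Cdh23, Myo7a and Ush1c on a common scale. The Pcdh15 means move apart from L11 on, while the means of the other members stay near 0 except for Myo7a in L13, which holds the array of animal R63.

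When the 22 L codes were tested with limma (moderated F, S code as covariate), 1 of the 4 members, Pcdh15, passed an adjusted p of 0.05, as did 4.58% of all probe sets past the filter. Pcdh15 was chosen from this contrast and nothing is read from its call. The L code took 70.2% of the variance that the S code left in Pcdh15, against 24.4% in Myo7a, 17.8% in Ush1c and 16.7% in Cdh23, where the median over all probe sets was 22.8%. Cdh23 was highest in L3 (5.14, n = 2) and lowest in L6 (4.90, n = 5). Ush1c was highest in L5 (5.67, n = 7) and lowest in L6 (5.47, n = 5). Myo7a was highest in L12 (6.37, n = 3) and lowest in L13 at 5.90 ± 0.60 (n = 3), the code of animal R63. In L14 and L19, the codes at both ends of Pcdh15, Cdh23 was at 5.04 and 5.04, Myo7a at 6.25 and 6.26, and Ush1c at 5.65 and 5.50.

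The S code also went with the level of most members, as it did with most probe sets. In the moderated F test over the 10 S codes, 3 of 4 members passed an adjusted p of 0.05, a share below that of all probe sets, of which 92.1% passed. Deposited Cdh23 was highest in S5 (5.17 ± 0.18, n = 12) and lowest in S10 (4.89 ± 0.14, n = 13), with an adjusted p of 3.02e-05 from limma. Deposited Pcdh15 was highest in S10 (7.46 ± 0.41, n = 13) and lowest in S3 (6.87 ± 0.22, n = 12), with an adjusted p of 0.0062 from limma, or 0.0704 with the L code as covariate. Deposited Ush1c ran from 5.69 in S3 to 5.45 in S2 (limma, adjusted p = 0.00711). For deposited Myo7a, from 6.39 in S7 to 6.14 in S5, the adjusted p was 0.0915 in limma, and it passed the threshold without the 3 rescanned arrays. Titles of S codes 1 to 5 also carry a date and those of S codes 6 to 10 carry none, and what the dates record is not stated in the labels.

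An F2 intercross gives 1:2:1 proportions at a single locus, so a mixture of 3 normal distributions with those weights was compared with single distributions for each probe set. With S code means removed, none of the 4 members was called (BIC difference over 10), and 0.24% of all probe sets were. The difference was -7.17 for Pcdh15, where a negative value favours a single distribution, and -9.04 for Cdh23, -9.50 for Ush1c and -34.1 for Myo7a. As deposited, the difference for Pcdh15 was 11.4, past the threshold, with fitted levels of 6.78, 6.93 and 7.71. Both lower levels lay closer together than the SD of 0.21 within a level, so the fit set the arrays near 7.7 against the rest and did not show 3 separate levels.

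The levels of the members were compared over animals, with two-sided p-values from 100000 permutations within S codes and adjustment over the 6 pairs. These permutations moved animals across L codes, so L code differences shared by both genes of a pair count in the p-values. By Pearson r only Pcdh15 and Ush1c passed, with an r of 0.291 (permutation p = 0.0018, adjusted p = 0.0108) and a Spearman rho of 0.313 (permutation p = 0.00081, adjusted p = 0.00486), and r was positive in 8 of 10 S codes. Without the 2 arrays farthest from the Pcdh15 median r was 0.302. The pair did not pass as deposited (r = 0.197, adjusted permutation p = 0.0949, permuted over all arrays). Nor did it pass with L code effects removed as well (r = 0.167, adjusted permutation p = 0.158) or with 5 principal components of all arrays removed (r = 0.116, adjusted permutation p = 0.766). Without S code 6 r was 0.226 (adjusted permutation p = 0.0672). Within the arrays of a deposited Pcdh15 level under 7.3 it was 0.192, and within those at 7.4 or more it was -0.00355, close to 0. Ush1c was also the member that went with RNA quality, whose r was 0.290 for the difference of actin 3' and 5' probe sets and 0.312 for the same of GAPDH, against 0.0223 and 0.0568 for Pcdh15. With those differences removed r between Pcdh15 and Ush1c was 0.290.

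Pcdh15 and Cdh23, the partners of the tip link, did not pass. For this pair, whose genes lie on the same chromosome with 41 places between them in the order of measured genes, r was 0.0424 (permutation p = 0.664, adjusted p = 0.782) and rho was 0.0458 (permutation p = 0.635, adjusted p = 0.635). For Cdh23 and Ush1c, whose proteins bind each other, r was 0.206 (permutation p = 0.0257, adjusted p = 0.0772) while rho was 0.234 and passed (permutation p = 0.0138, adjusted p = 0.0413). For Cdh23 and Myo7a r was 0.0679 (adjusted permutation p = 0.605), and for Pcdh15 and Myo7a it was 0.0233 (adjusted permutation p = 0.782). For Myo7a and Ush1c r was -0.150 (adjusted permutation p = 0.345) and rho was 0.0714, and r was 0.122 without S code 3, which holds the array of animal R63, and -0.190 without S code 1, which holds that of animal R15.

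Of 25 other genes of the Usher and hair bundle system, 13 had a probe set of their own past the filter. Cdhr5 lay below the filter, and genes such as Ush1g, Whrn, Pdzd7, Clrn1, Tmc1, Tmc2, Lhfpl5, Myo15a, Myo3a and Myo3b had no probe set annotated to them alone. By role, 6 of the 13 were Usher and Usher-like disease genes, 2 were hair bundle partners, 3 were relatives of the brush border and 2 were partners at the base of photoreceptor discs. In the L code test 1 of the 13 passed, Arsg, where 4.58% of all probe sets did, and 10 of 13 passed the S code test, where 92.1% did. Arsg, a lysosomal arylsulfatase gene mutated in an atypical form of Usher syndrome, had an L code share of 56.5% of the variance, with its highest mean in L15 (7.87) and its lowest in L17 (7.35). L15 was also the next to highest code of Pcdh15 with S code means removed.

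Over 52 relations between the members and these genes, 8 passed an adjusted permutation p of 0.05, 7 of them positive. By rho 7 passed. Pcdh15 was in 2 of the 8. With Arsg its r was 0.589 and its rho 0.622, each with an adjusted permutation p of 0.00052, the smallest the permutations could give here. That r was 0.264 in the arrays under 7.3 and 0.38 in those at 7.4 or more, and 0.183 (adjusted permutation p = 0.163) with L code effects removed. With Adgrv1, a very large adhesion receptor gene of the Usher system, Pcdh15 was negatively correlated (r = -0.266, adjusted permutation p = 0.0109). That r was -0.377 with L code effects removed, -0.238 and -0.255 on the sides of the interval, and -0.046 (adjusted permutation p = 0.729) as deposited.

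**Figure D4:**
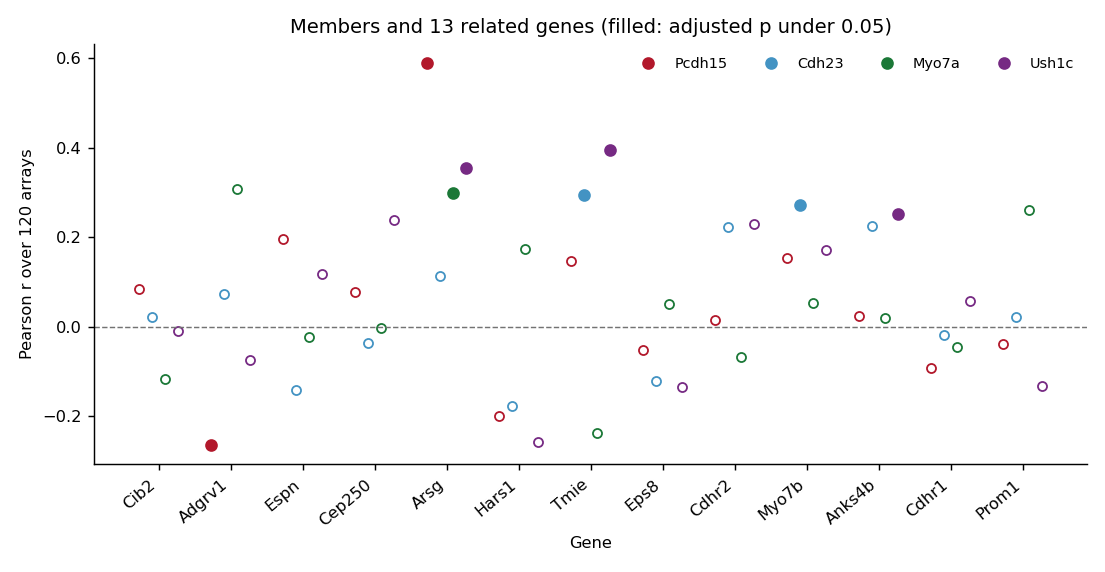
Pearson r over 120 arrays (S code means removed) between each member, by colour, and each of 13 related genes, with filled points for an adjusted permutation p under 0.05 and open points for the rest. The highest value is 0.589 for Pcdh15 and Arsg, and the lowest filled value is -0.266 for Pcdh15 and Adgrv1.

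The other members were in 6 relations past the threshold. Ush1c was correlated with Tmie, a subunit of the mechanotransduction channel (r = 0.394, adjusted permutation p = 0.00832), with Arsg (r = 0.355, adjusted permutation p = 0.00572) and with Anks4b, a scaffold that binds harmonin in the intestinal brush border (r = 0.253, adjusted permutation p = 0.0483). Without the 3 rescanned arrays the r of Ush1c was 0.245 with Tmie and 0.182 with Anks4b, and neither passed. Ush1c and Arsg had an r of 0.239 with the 3' to 5' differences removed (adjusted permutation p = 0.0746). Cdh23 was correlated with Tmie (r = 0.293, adjusted permutation p = 0.0109) and with the brush border myosin gene Myo7b (r = 0.271, adjusted permutation p = 0.0342). The relation with Myo7b did not pass in 7 of 18 alternatives. Mean levels were 4.36 for Myo7b and 4.57 for Anks4b, near the filter of 4.283. Those of Cdh23 (5.0) and Ush1c (5.58) also lay below the lowest array median (5.78). Myo7a was correlated with Arsg (r = 0.3, adjusted permutation p = 0.0189), a relation that did not pass without the rescanned arrays (0.241). With 5 principal components removed, none of the 3 relations of Ush1c (r of 0.178 with Arsg, 0.148 with Tmie and 0.0593 with Anks4b) and neither of Cdh23 (0.162 with Tmie and 0.206 with Myo7b) passed, while Myo7a and Arsg did (0.328, adjusted permutation p = 0.0078). Arsg thus passed with 3 of the 4 members and Tmie with 2 before these removals. Cib2, Espn, Cep250, Hars1, Eps8, Cdhr2, Cdhr1 and Prom1 passed with none, and for Cdhr1, the photoreceptor cadherin at the base of the discs, r lay between -0.0932 and 0.0571.

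The members were also set against scores of 14 ocular cell type lists, each the mean of the standardised levels of its markers. Of 56 relations 4 passed by r, 3 of them positive, and 10 passed by rho. For Pcdh15 the 1 relation past the threshold by r was with the melanocyte list (r = 0.265, adjusted permutation p = 0.0319), whose 5 measured genes all had a positive r between 0.17 and 0.31. That r was 0.105 (adjusted permutation p = 0.453) with L code effects removed. By rho Pcdh15 also passed with the bipolar (0.269) and pigment epithelium lists (0.259). Without animals R63 and R15 it also passed by r with the cone (0.28) and pigment epithelium lists (0.277). With L code effects removed r was 0.261 for the bipolar list, -0.0139 for pigment epithelium and -0.0828 for cones, and none of these passed. For Pcdh15 and the rod score r was -0.138 (adjusted permutation p = 0.359), with single rod genes from -0.59 for Grk1 to 0.51, and for the cone score it was 0.253 (adjusted permutation p = 0.0689), with single cone genes up to 0.44 for Arr3. Photoreceptor markers thus lay on both sides of 0, and the part of cell number in the Pcdh15 differences was not tested.

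Ush1c was negatively correlated with the score of cornea and conjunctiva (r = -0.406, adjusted permutation p = 0.00224), where all 7 keratin and surface genes had a negative r, and positively with that of amacrine and horizontal cells (r = 0.301, adjusted permutation p = 0.0215), where all 6 had a positive r. The relation with amacrine and horizontal cells did not pass with the 3' to 5' differences removed (r = 0.194, adjusted permutation p = 0.118) or with L code effects removed (r = 0.237, adjusted permutation p = 0.0578). Without the rescanned arrays that r was 0.449 (adjusted permutation p = 0.00056). By rho Ush1c also passed with the ganglion (0.336) and cone lists (0.268). Without the rescanned arrays it also passed by r with the ganglion (0.367), cone (0.347) and Mueller glia lists (0.264). With L code effects removed r was 0.0596 for ganglion, 0.168 for cone and -0.1 for Mueller glia, and none of these passed. Cdh23 was correlated with the gland score (r = 0.32, adjusted permutation p = 0.0104). With 5 principal components of all arrays removed, Ush1c and the cornea score had an r of -0.056 (adjusted permutation p = 0.689), and Cdh23 and the gland score 0.249 (adjusted permutation p = 0.058). Myo7a, which the pigment epithelium uses, had an r of 0.281 with the score of that tissue (adjusted permutation p = 0.179), but rho was 0.0388 and r was -0.0289 without the rescanned arrays, among them that of animal R63. It passed with no list by r. By rho it passed with the ganglion list (0.315) and the lens list (0.298). Myo7a had an r of 0.385 with the 75th percentile of the array, Ush1c -0.363 and Cdh23 -0.256, against -0.0433 for Pcdh15, and the part of this array measure in the relations of Cdh23, Myo7a and Ush1c was not tested.

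Among 12325 other genes, the 8 of highest r with Pcdh15 were Zc3h8 (0.657), Cc2d2a (0.654), Opn4 (0.647), Prdm1 (0.646), Pde8b (0.642), Ncam1, Nat8b and Dynlrb2 (0.628 to 0.634 for these 3). Cc2d2a builds the transition zone of cilia, Opn4 encodes melanopsin, the pigment of light-sensitive ganglion cells, and Prdm1 encodes a repressor used by photoreceptor precursors. The 3 of lowest r were Ptprn (-0.735), which encodes a membrane protein of secretory granules, Icmt (-0.717), which methylates prenylated proteins, and Lpcat1 (-0.643), an enzyme of phosphatidylcholine synthesis. These r values were taken over 120 arrays that share their S and L codes, and they carry no test. Prdm1 was the only one of the 11 on chromosome 20. An absolute r of 0.5 or more was reached by 59 genes, and by 1 once L code effects were removed. For Opn4 r was 0.512 in the arrays with a deposited Pcdh15 level under 7.3 and 0.358 in those at 7.4 or more, and for Ptprn it was -0.649 and -0.474. With L code effects removed r over all arrays was 0.245 for Opn4 and -0.481 for Ptprn.

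Opn4 and Ptprn also moved apart in the later L codes. Opn4 had a mean of 6.91 in L14 and 5.54 in L19, where Pcdh15 was highest and lowest, and Ptprn had 8.14 in L14 and 9.54 in L19. The SD of Opn4 was 0.274 in L codes 1 to 10 and 0.496 in L codes 11 to 22, and that of Ptprn was 0.155 and 0.554. All 11 passed the L code test, which says little, since they were picked for likeness to a gene that follows that code. The means and SDs above largely follow from the same choice, with L14 and L19 picked as the ends of Pcdh15. They are a description only.

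**Figure D5:**
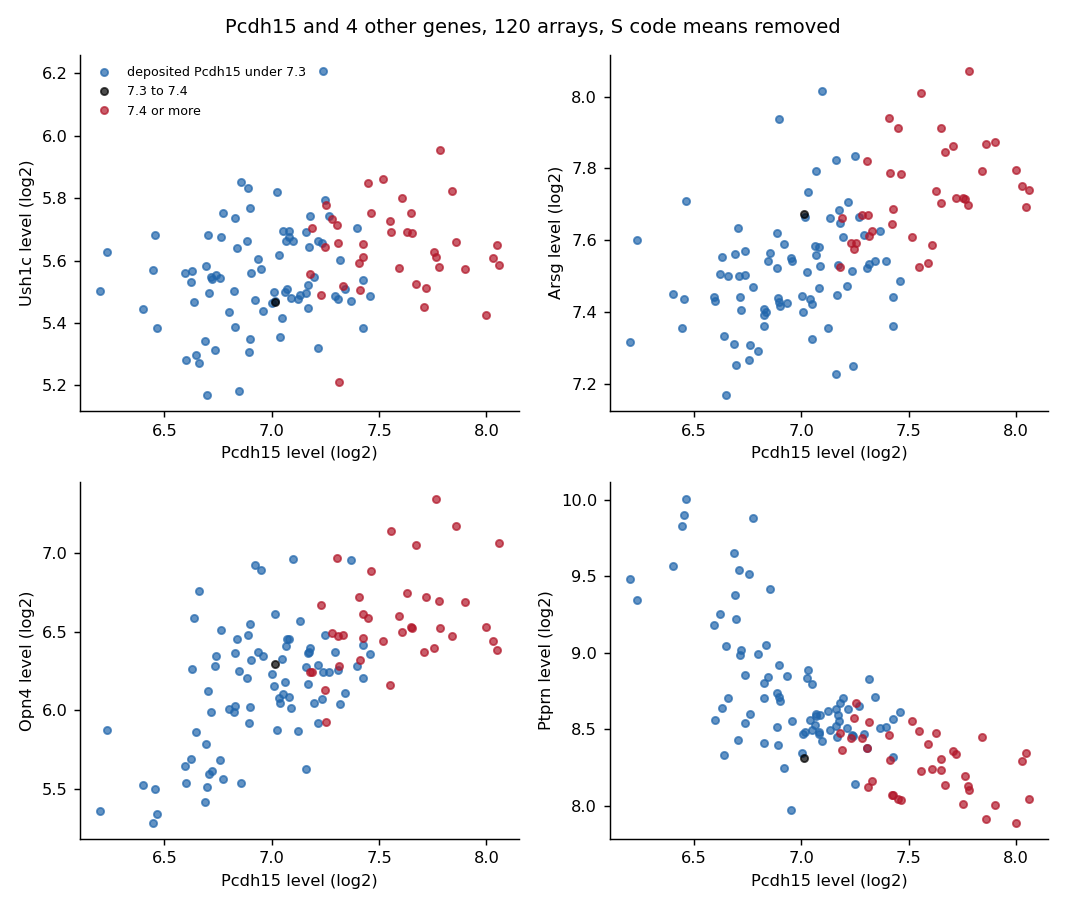
Level of Ush1c, Arsg, Opn4 and Ptprn (vertical axes, log2) against that of Pcdh15 (horizontal axes, log2) in 120 arrays with S code means removed, coloured by the deposited Pcdh15 level. Over all arrays r is 0.291 for Ush1c, 0.589 for Arsg, 0.647 for Opn4 and -0.735 for Ptprn, and the highest Ptprn values lie among arrays of low Pcdh15.

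The genes most like the other members had lower r values. For Cdh23 the highest was Wnt2b, a Wnt ligand (0.465), and the lowest was Pdcl3 (-0.458), and no gene reached an absolute r of 0.5. For Myo7a the highest were Mocos (0.584) and the kinesin light chain gene Klc3, and the lowest was the linker histone gene H1f4 (-0.579). The 8 highest for Myo7a had r values of 0.508 to 0.584 and rho values of 0.272 to 0.424, and the array of animal R63 was the lowest of all for Myo7a. For Ush1c the highest was the sugar transporter gene Slc45a1 (0.548) and the lowest was the kinase gene Stk38l (-0.585). The 8 highest for Ush1c had an r between 0.08 and 0.25 with 5 principal components removed.

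The 3 measured genes on each side of Pcdh15 in the RefSeq order had r values between 0.0847 and 0.464 with it. The highest was that of Ipmk, an inositol phosphate kinase gene 2 places away, which was 0.11 with L code effects removed. The neighbours of Cdh23 had r values between -0.207 and 0.24, those of Myo7a between -0.242 (Omp) and 0.304 (Clns1a), and those of Ush1c between -0.126 and 0.32. By rho the range was -0.207 to 0.0763 for Myo7a, with Omp at 0.0763 and Clns1a at 0.0484, and 0.0561 to 0.186 for Ush1c.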

How the data were processed

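Per the labels' protocols, both eyes of an animal were pooled and RNA was extracted, column-purified and labelled with one-cycle kits for rat arrays. Per the submitters' processing notes, the deposited log2 values came from RMA (robust multi-array averaging), whose version is not given in the sources used here. RMA levels array distributions, so a shift of most genes together can go unseen, and a probe that binds the allele of 1 strain poorly can look like a change in level. The table held 31099 probe sets, 57 of them controls. Of the other 31042, 20826 had 1 gene symbol, 436 several and 9780 none, and probe sets with several name no gene here. Symbols were updated by Entrez number from a RefSeq table of GRCr8 (20758 matched), which also gave gene order and promoter windows.

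S code means were subtracted from each probe set and its overall mean added back. The tests took probe sets whose mean reached the 25th percentile of the whole table (4.283), and 12326 genes were each read from their probe set of highest mean. Codes were tested with limma 3.58.1 in R 4.3.3 (moderated F, Benjamini-Hochberg over 23326 probe sets, threshold 0.05; S code as covariate in the L code test). Correlations used numpy 2.4.6 and scipy 1.17.1 with 100000 two-sided permutations within S codes, adjusted by Benjamini-Hochberg within each family of relations. With no removal of S code means the permutations ran over all arrays instead. L codes were not kept in any of the permutations. The code test, the mixture call and the correlation test were tested on simulated data. The number of arrays limits the precision, and array medians lay between 5.78 and 5.96. The most similar arrays still differed with an SD of 0.181, so none was treated as a duplicate. P-values rest on the spread over arrays, in which animal and array error are joined.

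The genes named were the members, the 25 listed genes of the Usher system (1 of them is not reported here), the 8 genes of highest and 3 of lowest r with each member (of which the ends are printed), and the 3 measured neighbours on each side. The members, gene lists and tests were chosen with earlier results of these data known. The alternatives were no removal of S code means, the rescanned arrays or those of animals R63 and R15 left out, array medians subtracted, removal also of 3' to 5' differences (actin, GAPDH), 5 principal components or L code effects, a joint model of both codes, the L code as covariate of the S code test, Spearman rho, no filter, stricter thresholds, and each S code left out; the values within either side of the sparse Pcdh15 interval were chosen after seeing the data.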

Additional observations from a re-analysis of the deposited data

Results flagged for a closer look

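Each member was looked at for a single array far from the rest of its code. The 16 L codes of 4 to 10 arrays gave 64 groups, and 2 groups had one such array. Chance gives about 1 in 20, so this count is no larger than chance would give. In L2 (n = 8, S code means removed), Pcdh15 was at 6.70 in animal R12 and between 7.16 and 7.46 in the other 7. In the same code, Cdh23 was at 5.35 in animal R9, the highest of all 120 arrays, and between 4.83 and 5.07 in the others.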

How the results depend on the processing

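L14 and L19 were picked as the ends of the Pcdh15 code means, so the direction of their difference was given by that choice; leaving out single arrays of these codes gave 1.28 to 1.42. The L code test called 1068 probe sets and 1 member; the total was 3003 with no removal of S code means, 627 with 5 principal components removed, 2123 with the 3' to 5' differences removed and 474 at a threshold of 0.01, with 1 member called each time. The 1:2:1 mixture was called for 1 member with no removal of S code means and for 0 otherwise. Of the 6 member pairs 1 passed; 2 passed by rho and with array medians subtracted, 0 with 5 principal components or L code effects removed, and 0 to 2 with single S codes left out. Among the arrays of high Pcdh15 its r with Ush1c was -0.00355. Of the relations with related genes 8 passed; 16 passed with no removal of S code means, 5 each without the rescanned arrays, without animals R63 and R15 and with 5 principal components removed, and 6 to 10 with single S codes left out. Of the cell type relations 4 passed; 24 passed with no removal of S code means, 9 without the rescanned arrays, 11 without animals R63 and R15, 10 by rho, and 1 to 8 with single S codes left out. With the 3' to 5' differences removed, 7 of the cell type relations passed. The causes were not tested. No paired analysis was possible because all animals form 1 group and no 2 groups share replicate numbers. Each member rests on 1 probe set and each animal on 1 array, and L codes hold as few as 2 arrays.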

Other observations

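Clock genes were looked at after Pcdh15 had been found to vary with Opn4 and Pde8b, so their values are a description with no test. The activator genes Bmal1, Clock and Npas2 had r values of -0.268 to -0.176 with Pcdh15, and -0.251 to -0.0975 with L code effects removed. Of 13 repressor and output genes 9 had a positive r with Pcdh15, up to 0.323 for Dbp (0.168 with L code effects removed). The other 4 had a negative one: Nfil3 (-0.35), Per1 (-0.232), Cry2 (-0.0483) and Cry1 (-0.0442). The 3 activator genes had r values of -0.335 to -0.249 with Cdh23 and -0.387 to -0.143 with Ush1c. With Myo7a they had 0.139 to 0.237, but rho values of -0.167 to 0.0616, and the array of animal R63 was the lowest of all for Myo7a and the highest for Ush1c. Among retinal genes known to follow the daily cycle, r with Pcdh15 was 0.51 for Drd4, the dopamine receptor gene of photoreceptors, and -0.168 for Aanat, the enzyme gene of melatonin synthesis. With L code effects removed these were 0.284 and 0.054. The hour at which tissue was taken was not used here.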
